A study of Mus musculus with 10 samples.

Results

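DNA replication genes were examined in cardiomyocytes, the muscle cells that drive the heartbeat, of young mice that had received dnMKL1. This is a dominant-negative version of MKL1, a coactivator that works with serum response factor (SRF). The group held 37 genes, picked by symbol from the 23337 rows of the authors' comparison table: those of origin recognition and loading, the MCM helicase and its activators, the sliding clamp and its loader, the replicative polymerases, Okazaki fragment processing, nucleotide supply, and the E2F1 and E2F2 factors with Uhrf1. All 37 symbols were found, and all 37 had an adjusted p-value.

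There were 5 biological replicates labelled GFP and 5 labelled dnMKL1. All mice were labelled Wildtype, and all received an adeno-associated virus of serotype AAV9 on postnatal day 1 at 5e+08 viral genomes per gram of body weight. The virus carried GFP alone (AAV9-cTNT-GFP) or dnMKL1 with GFP (AAV9-cTNT-dnMKL1-GFP), so the controls share the virus, the promoter and the GFP. The cardiac troponin T promoter (cTNT) drives the transgene in cardiomyocytes, and cells of both groups were sorted by fluorescence on postnatal day 14. How many animals stand behind each replicate is not given in the sources used here, nor is the mouse strain.

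Before a cell copies its genome, the origin recognition complex, Cdc6 and Cdt1 load a ring of 6 MCM proteins onto DNA at each origin. The kinase Cdc7, with Cdc45 and the GINS complex, then turns the rings into active helicases, and polymerases held by the PCNA clamp copy the strands. Many of these genes are classical targets of the E2F transcription factors and are transcribed towards S phase. Rodent cardiomyocytes pass through a last round of DNA synthesis in the first days to weeks after birth, when most become binucleate, and then largely leave the cell cycle.

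Promoter sequence, which the choice of genes did not use, was searched for elements of cell-cycle control. Windows of 300 bases, from 250 before to 50 after a RefSeq transcript start (build GRCm38.p6), were at hand for 31 of the 37 genes. E2F sites were searched on both strands as TTTGGCGC or TTTCCCGC or TTTGCCGC or TTTCGCGC, of which matches on opposite strands can overlap. At least 1 match stood in the windows of 14 of 31 replication genes (45.2%), against 2.61% of all 27025 genes with a window and 4.54% of the 9931 with a window and an adjusted p-value. For E2F sites the share was 27.6% of 29 further replication genes outside the 37 and 5% of 20 mitosis genes. The CCAAT box (CCAAT, either strand) was in the windows of 64.5% of the replication genes, 41.1% of all genes and 42.8% of those with an adjusted p-value. It was also in 41.4% of the further replication genes and 85% of the mitosis genes, so it is not particular to the 37. The CHR element of mitotic genes (TTTGAA, either strand) stood at 19.4%, against 20.2% of all genes and 14.1% of those with an adjusted p-value, while 75.0% of 20 mitosis genes with a window held it. The CArG box, the sequence bound by SRF, was found in 1 of the 31, Tyms, against 1.81% of all genes and 1.66% of those with an adjusted p-value. Of the 6 replication genes that rose in dnMKL1 libraries, 5 had a window and 2 of these, Mcm6 and Mcm7, held an E2F match, as did 12 of the 26 that did not pass the test. A match describes the letters in this window and is not a measurement of binding.

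The windows of 5 MCM2-7 genes are shown because their ring had the largest median change, although Mcm2, Mcm3 and Mcm5 did not pass the test. Those of Orc6, Pcna and Rfc5 follow as the other genes that rose. Of 2 windows of Mcm7, the one with matches is given. Each is written 5′ to 3′ on the gene's own strand, with E2F matches in capitals. Mcm2, Orc6, Pcna and Rfc5 have none in these windows. In Mcm5 and Mcm6, 2 matches on opposite strands overlap.
Mcm2, chr6:88898731-88899030, minus strand: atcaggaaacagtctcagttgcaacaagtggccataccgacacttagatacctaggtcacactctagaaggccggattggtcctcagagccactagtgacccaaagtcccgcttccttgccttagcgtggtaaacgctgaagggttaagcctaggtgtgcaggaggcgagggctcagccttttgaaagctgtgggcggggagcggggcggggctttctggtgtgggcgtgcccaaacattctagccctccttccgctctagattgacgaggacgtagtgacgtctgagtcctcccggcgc
Mcm3, chr1:20820263-20820562, minus strand: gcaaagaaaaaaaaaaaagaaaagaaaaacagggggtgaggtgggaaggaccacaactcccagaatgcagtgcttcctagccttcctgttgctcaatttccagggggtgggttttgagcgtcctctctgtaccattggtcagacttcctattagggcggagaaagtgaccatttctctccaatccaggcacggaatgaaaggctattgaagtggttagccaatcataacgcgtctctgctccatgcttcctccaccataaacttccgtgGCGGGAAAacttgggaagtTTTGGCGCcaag
Mcm5, chr8:75109259-75109558, plus strand: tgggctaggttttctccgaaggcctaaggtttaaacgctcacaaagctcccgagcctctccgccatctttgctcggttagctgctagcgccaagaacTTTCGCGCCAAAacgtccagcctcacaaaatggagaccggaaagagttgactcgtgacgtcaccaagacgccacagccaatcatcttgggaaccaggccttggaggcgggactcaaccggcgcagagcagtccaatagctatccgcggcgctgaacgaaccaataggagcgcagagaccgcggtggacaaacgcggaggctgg
Mcm6, chr1:128359656-128359955, minus strand: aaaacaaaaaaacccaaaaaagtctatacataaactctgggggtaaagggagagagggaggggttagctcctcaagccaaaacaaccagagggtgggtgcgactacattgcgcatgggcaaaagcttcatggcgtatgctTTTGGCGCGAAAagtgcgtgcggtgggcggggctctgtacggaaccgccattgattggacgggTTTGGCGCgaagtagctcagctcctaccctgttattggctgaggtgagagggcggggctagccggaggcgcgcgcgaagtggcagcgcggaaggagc
Mcm7, chr5:138171834-138172133, minus strand: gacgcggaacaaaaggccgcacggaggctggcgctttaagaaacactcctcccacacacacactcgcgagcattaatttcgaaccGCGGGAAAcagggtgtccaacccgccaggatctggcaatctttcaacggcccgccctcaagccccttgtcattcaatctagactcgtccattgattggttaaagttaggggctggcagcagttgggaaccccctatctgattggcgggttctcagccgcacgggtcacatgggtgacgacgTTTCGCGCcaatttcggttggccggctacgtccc
Orc6, chr8:85299382-85299681, plus strand: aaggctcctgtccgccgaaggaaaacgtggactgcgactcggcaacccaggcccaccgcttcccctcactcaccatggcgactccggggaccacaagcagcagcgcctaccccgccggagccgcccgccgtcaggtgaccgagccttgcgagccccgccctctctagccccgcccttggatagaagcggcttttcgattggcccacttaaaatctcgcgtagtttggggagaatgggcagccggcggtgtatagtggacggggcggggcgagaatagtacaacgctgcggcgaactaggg
Pcna, chr2:132253131-132253430, minus strand: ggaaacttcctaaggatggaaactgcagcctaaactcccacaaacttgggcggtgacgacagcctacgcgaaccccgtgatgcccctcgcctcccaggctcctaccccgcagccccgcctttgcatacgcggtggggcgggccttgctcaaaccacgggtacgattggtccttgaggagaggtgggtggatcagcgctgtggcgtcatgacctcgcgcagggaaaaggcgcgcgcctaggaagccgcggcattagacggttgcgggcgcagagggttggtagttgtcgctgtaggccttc
Rfc5, chr5:117388974-117389273, minus strand: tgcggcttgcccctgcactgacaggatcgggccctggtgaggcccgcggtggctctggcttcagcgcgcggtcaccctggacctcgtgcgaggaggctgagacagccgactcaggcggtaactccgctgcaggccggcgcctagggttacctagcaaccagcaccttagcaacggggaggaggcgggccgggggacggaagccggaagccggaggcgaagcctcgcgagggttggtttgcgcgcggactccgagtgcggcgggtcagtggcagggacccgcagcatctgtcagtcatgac

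The table used here gives no value per library. For each gene it holds the base mean, which is the average over all 10 libraries of read counts divided by each library's size factor (normalized counts), and the log2 fold change between the groups with its standard error (SE). Group means were therefore worked out from these columns (implied means), and whether single libraries overlapped between the groups cannot be given. Positive fold changes were taken to mean higher in dnMKL1 libraries, because the authors' deposited table gives Mkl1, the gene the transgene is named for, a value of 9.80 (SE 0.15). All directions rest on that reading. Estimated library totals ran from 8803029 to 17123577 counts for GFP and from 8835136 to 17228615 for dnMKL1. At this depth the replication genes had between 64 (E2f2) and 6394 (Rrm1) estimated reads over all libraries, and 13 of the 37 had a base mean under 50.

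Of the 37 replication genes, 6 rose in dnMKL1 libraries and 0 fell at an adjusted p-value under 0.05 in the authors' deposited table (Wald test, Benjamini-Hochberg adjustment over 14056 genes). Those that rose were Mcm4, Mcm6 and Mcm7 of the helicase, Pcna and Rfc5 of the clamp and its loader, and Orc6 of the origin recognition complex. Across all genes tested, 34.1% passed, with 16.6% higher and 17.4% lower. The 16.2% of replication genes that rose was thus near the share among all genes, and the count by itself does not set the group apart. At an unadjusted p-value under 0.05 there were 9 higher and 0 lower of the 37, beside 2919 higher and 2935 lower of all 14056 genes tested. Of the 8990 genes within the same range of base means, 2179 were higher and 1421 lower at that threshold. The median log2 fold change was 0.18, with 28 positive and 9 negative values, against a median of 0.02 and 52.0% positive values over all genes tested. Among the 8990 genes within the same range of base means, the median was 0.06, 56.9% were positive, 19.5% rose and 12.4% fell. Only Mcm6 had a change of at least 2-fold. For 23 of the 37 genes the 95% interval of the log2 fold change lay inside -1 to 1, and for 9 inside -0.5 to 0.5.

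Scaling mattered for the counts. The summed implied means were lower in dnMKL1 libraries, and scaling both groups to the same total adds 0.29 to every log2 fold change. Under that scaling 19 replication genes were higher and 0 lower, beside 40.4% of all genes higher. Of the 9 negative values, 8 then turned positive, none of them past the threshold on either scaling, and only that of Rrm2 stayed below 0, at -0.62. Every fold change below is on the authors' scaling, under which the median gene above a base mean of 10 stood at 0.0041.

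**Figure D1:**
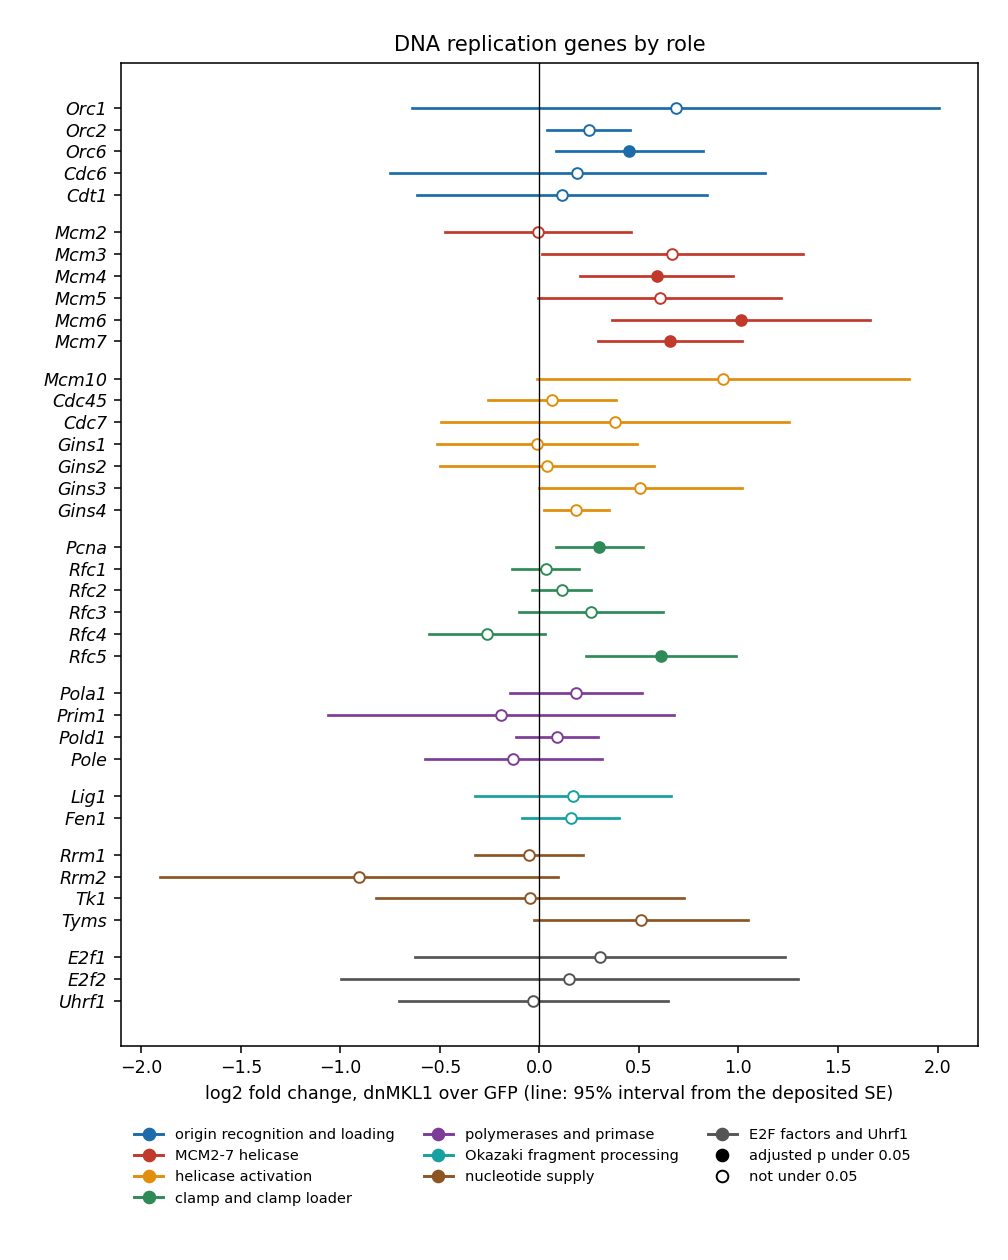
Log2 fold change (dnMKL1 over GFP) of the 37 replication genes in the authors' deposited table, with genes ordered by role and lines for the 95% interval from the SE. Filled points have an adjusted p-value under 0.05; these 6 lie to the right of 0, and Orc1 has the widest interval.

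The MCM2-7 ring had the largest median of the 8 roles, 0.63 in log2 fold change. Its 6 subunits form the replicative helicase; 3 rose, 5 had positive values, and 4 passed an unadjusted threshold of 0.05. The implied mean of Mcm6 was 213.7 normalized counts with GFP and 431.8 with dnMKL1. Its log2 fold change was 1.01 (SE 0.33, adjusted Wald p = 0.0087) in the authors' deposited table, a 2.02-fold rise with a 95% interval from 1.29 to 3.17. Mcm7 went from 202.2 to 318.3, with a log2 fold change of 0.65 (SE 0.18, adjusted Wald p = 0.0020) in the authors' deposited table, the smallest p-value among the 37. For Mcm4 the implied means were 217.8 and 327.6, and the authors' deposited table gave 0.59 (SE 0.20, adjusted Wald p = 0.010). These 3 subunits are those of the core of the ring that is active as a helicase by itself in biochemical work. Mcm3 and Mcm5 had fold changes of the same size and did not pass. The authors' deposited table gave 0.67 (SE 0.33, adjusted Wald p = 0.11) for Mcm3, with implied means of 156.4 and 248.6. For Mcm5, at 148.5 and 225.6, the authors' deposited table gave 0.60 (SE 0.31, adjusted Wald p = 0.12). Mcm2, the most abundant of the 6 in counts, had implied means of 484.1 and 481.2 and a log2 fold change of -0.01 (SE 0.24) in the authors' deposited table, with a 95% interval from -0.48 to 0.46. Whether Mcm2 differs from the other subunits was not tested, since the correlation of their errors is not in the table. Summed over the 6 genes, the implied means were 1423 with GFP and 2033 with dnMKL1. Mcm6 lies on chromosome 1 at 128331590-128359664, Mcm7 on chromosome 5 at 138164583-138172422 and Mcm4 on chromosome 16 at 15623897-15637400, all on the minus strand (GENCODE M21 on GRCm38).

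Genes of origin recognition and loading were all positive, and 1 of 5 passed. Orc6, the smallest subunit of the origin recognition complex, went from an implied mean of 85.3 to 116.7. The authors' deposited table gave 0.45 (SE 0.19, adjusted Wald p = 0.049). The call was at the threshold: the adjusted p was 0.061 with adjustment over all p-values and 0.052 after centring on the median gene. Orc2, another subunit, had implied means of 243.0 and 288.3 and a log2 fold change of 0.25 (SE 0.11, adjusted Wald p = 0.059) in the authors' deposited table. Orc1 and the loaders Cdc6 and Cdt1 were too sparse or too variable for a statement. The authors' deposited table gave 0.68 (SE 0.67) for Orc1, 0.19 (SE 0.48) for Cdc6 and 0.11 (SE 0.37) for Cdt1. Orc1 rested on 82 estimated reads in all libraries together and Cdc6 on 160.

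None of the 7 genes of helicase activation passed, and 1 (Gins4) had an unadjusted p-value under 0.05. The GINS complex and Cdc45 bind the MCM ring to make the moving helicase, yet their median stood below that of the ring. Gins4 had implied means of 262.7 and 298.7 and a log2 fold change of 0.19 (SE 0.08, adjusted Wald p = 0.072) in the authors' deposited table. Cdc45 was at 84.0 and 87.8, with 0.06 (SE 0.16) in the authors' deposited table and a 95% interval from -0.26 to 0.38. For Gins3 the authors' deposited table gave 0.51 (SE 0.26, adjusted Wald p = 0.12), while Gins1 and Gins2 were at -0.01 (SE 0.26) and 0.04 (SE 0.27). Mcm10, a factor that helps start the activated helicase, had implied means of 7.68 and 14.6, with 0.92 (SE 0.48, adjusted Wald p = 0.13) in the authors' deposited table, and did not pass. The kinase gene Cdc7 was at 0.38 (SE 0.45) in the authors' deposited table.

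The clamp and its loader held 2 of the 6 genes that rose. Pcna, the ring that tethers polymerases to DNA, went from an implied mean of 220.0 to 271.2, a 1.23-fold rise with a 95% interval from 1.06 to 1.43. Its log2 fold change was 0.30 (SE 0.11, adjusted Wald p = 0.022) in the authors' deposited table. Of the 5 clamp loader subunits only Rfc5 passed, and differences among them were not tested. Rfc5 rose from 90.9 to 138.9, with 0.61 (SE 0.19, adjusted Wald p = 0.0065) in the authors' deposited table. Rfc4 had a negative value that did not pass, -0.26 (SE 0.15, adjusted Wald p = 0.17) in the authors' deposited table, on implied means of 145.3 and 121.0. Rfc1 and Rfc2, with the largest counts of the loader, had with Gins4 the smallest SEs of the 37. The authors' deposited table gave 0.03 (SE 0.09) for Rfc1, with a 95% interval from -0.14 to 0.20, and 0.11 (SE 0.08) for Rfc2, from -0.04 to 0.26. Rfc3 was at 0.26 (SE 0.18) in the authors' deposited table.

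Genes of DNA synthesis itself did not pass the test, and 0 of the 6 had an unadjusted p-value under 0.05 (Wald test in the authors' deposited table). The catalytic subunits of polymerases alpha, delta and epsilon, Pola1, Pold1 and Pole, stood at 0.18 (SE 0.17), 0.09 (SE 0.11) and -0.13 (SE 0.23) as log2 values in the authors' deposited table. The primase gene Prim1 was at -0.19 (SE 0.44) there. Of the enzymes that finish Okazaki fragments, the flap nuclease gene Fen1 had implied means of 147.9 and 165.0, and the ligase gene Lig1 49.4 and 55.6. The authors' deposited table gave 0.16 (SE 0.12) for Fen1 and 0.17 (SE 0.25) for Lig1.

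Nucleotide supply was the one role whose summed implied means were lower with dnMKL1, 895.4 against 1098, and most of that difference came from Rrm2. Rrm2, the S-phase subunit of ribonucleotide reductase, had implied means of 406.8 with GFP and 217.1 with dnMKL1. The authors' deposited table gave -0.91 (SE 0.51, adjusted Wald p = 0.17), with a 95% interval from -1.91 to 0.10, and the gene did not pass. Its partner subunit Rrm1 was at 622.4 and 600.2, with -0.05 (SE 0.14) in the authors' deposited table. Thymidine kinase Tk1 stood at -0.05 (SE 0.39) and thymidylate synthase Tyms at 0.51 (SE 0.27, adjusted Wald p = 0.14) in the authors' deposited table.

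The regulators did not pass either. E2f1 had implied means of 45.6 and 56.4, and the authors' deposited table gave 0.31 (SE 0.47). E2f2 was the least abundant of the 37 by counts, at 5.80 and 6.44, with 0.15 (SE 0.59) in the authors' deposited table. Uhrf1, which brings the maintenance DNA methyltransferase to new strands, was at 49.3 and 48.3, with -0.03 (SE 0.35) in the authors' deposited table.

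**Figure D2:**
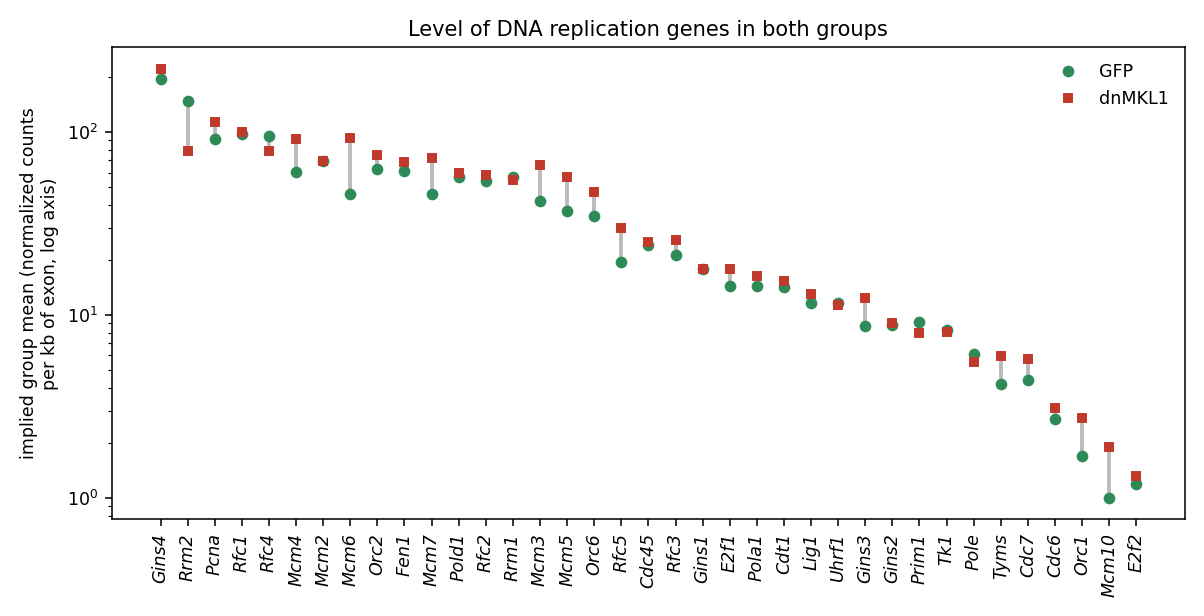
Implied group means per kilobase of exon for the 37 replication genes (log axis), GFP as circles and dnMKL1 as squares, ordered by base mean per kilobase. Gins4, Rrm2 and Pcna lead, the 6 MCM2-7 genes lie in the upper part, and E2f2, Mcm10 and Orc1 are lowest; no error is drawn because the table has none for a group mean.

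Per kilobase of exon (the union of all annotated exons in GENCODE M21), the replication genes spanned base means from 1.25 for E2f2 to 208.1 for Gins4. Next to Gins4 came Rrm2 at 112.6, Pcna at 102.3 and Rfc1 at 99.0 normalized counts per kilobase. By implied means the place of Rrm2 differed by group, although its change (-0.91, SE 0.51) did not pass the test. Its implied mean per kilobase was 146.8 with GFP and 78.3 with dnMKL1. With dnMKL1, Gins4 (221.4), Pcna (113.0), Rfc1 (100.1), Mcm6 (92.5), Mcm4 (91.3) and, narrowly, Rfc4 (78.9) stood above it. These ranks carry no error. The 6 ring subunits lay close together, from 46.9 for Mcm5 to 76.0 for Mcm4. At the low end stood Mcm10 at 1.45, Orc1 at 2.21 and Cdc6 at 2.91. Genes that act in 1 complex thus differed by this measure: Gins4 was at 208.1, whereas Gins1, Gins2 and Gins3 were at 17.8, 8.92 and 10.5 normalized counts per kilobase. Their base means were 280.7 for Gins4 and 27.0, 36.5 and 28.4 for the other 3, whose order therefore depends on the annotated exon length. Within the origin recognition complex the order was Orc2 at 68.9, Orc6 at 40.9 and Orc1 at 2.21.

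Some of these values may share reads with a neighbour, or lose them, where exons overlap and the counting did not use strand. The strand setting and the handling of such reads are not given in the sources used here. Exons of 13 of the 37 genes overlap another annotated gene. Fen1 shares 84.2% of its exon bases with such genes and Gins2 67.3%, so both are uncertain. Among the genes that rose, Mcm7 shares 12.6% with Ap4m1, Cops6 and 2 microRNA genes inside it, Rfc5 10.7% with Wsb2 and Orc6 6.93% with Vps35. These partners were looked up after the values of the replication genes had been seen. In the table Wsb2 (log2 fold change -0.11), Vps35 (-0.10) and Cops6 (-0.27) pointed the other way, while Ap4m1 (0.64) did not. GENCODE M21 also names 2 pseudogenes of Pcna and 1 of Tyms, and reads could be split with such copies.

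**Figure D3:**
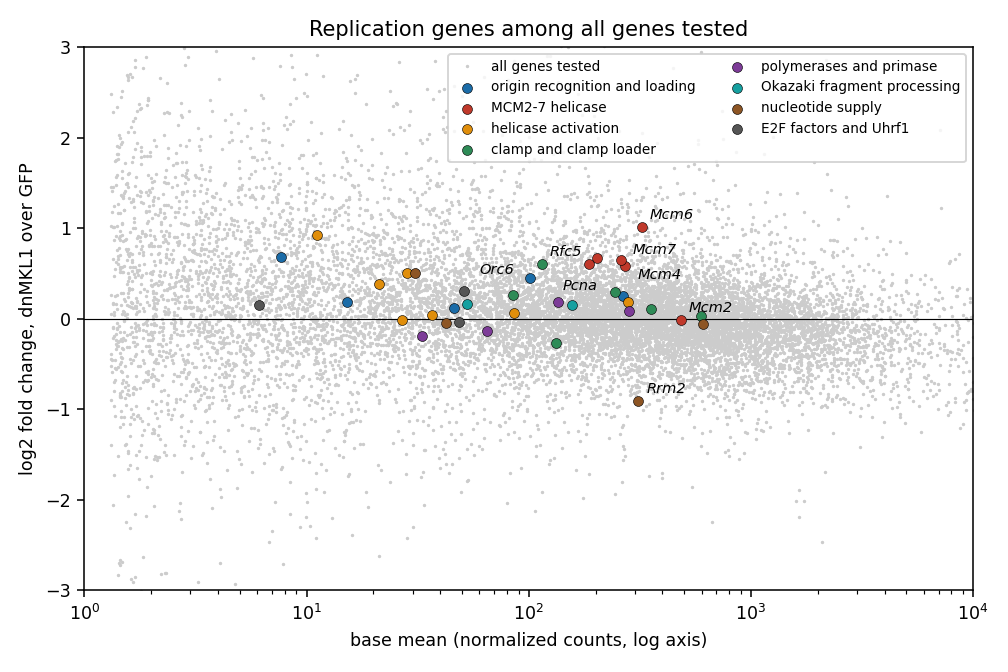
Base mean (log axis) against log2 fold change for all genes tested (small points) and the replication genes coloured by role. The genes that rose lie between base means of 101.0 (Orc6) and 322.7 (Mcm6), and Rrm2 lies apart at a fold change of -0.91; genes outside the axes are not shown.

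The 6 genes that rose all had base means of at least 100, as did 19 of the 37, so that a rise of the same size in the sparser genes could pass less easily. Depth was not the only limit. The SE of a gene also holds how much its level varied between libraries of 1 group, and that spread was recovered from the SE, the implied means and the size factors as a coefficient of variation (CV). It includes the moderation of the authors' model, which pulls genes towards others of like abundance. The median CV of the 37 genes was 21.6%, and it was 1.13 times the median of the 200 genes nearest in base mean. MCM2-7 had the highest ratio of the 8 roles, with CVs from 19.2% (Mcm7) to 35.9% (Mcm3) and a median ratio of 2.55; all 6 were above their neighbours. Rrm2 had a CV of 55.7%, 4.75 times that of its neighbours, and E2f1 49.9% with a ratio of 2.33. At the other end were Rfc2 at 6.32% and Gins4 at 6.90%, with ratios of 0.57 and 0.60. Helicase activators and the clamp and its loader had median ratios of 0.84 and 0.90. Endothelial markers, genes of the vessel lining, had a median ratio of 2.73 and mitosis genes 2.34; whether such cells have a part in the spread of MCM2-7 was not tested. Of all 12664 genes with such a value, 843 had a ratio above 2, and of the 37 replication genes 6 did: Mcm2, Mcm3, Mcm5, Mcm6, Rrm2 and E2f1.

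**Figure D4:**
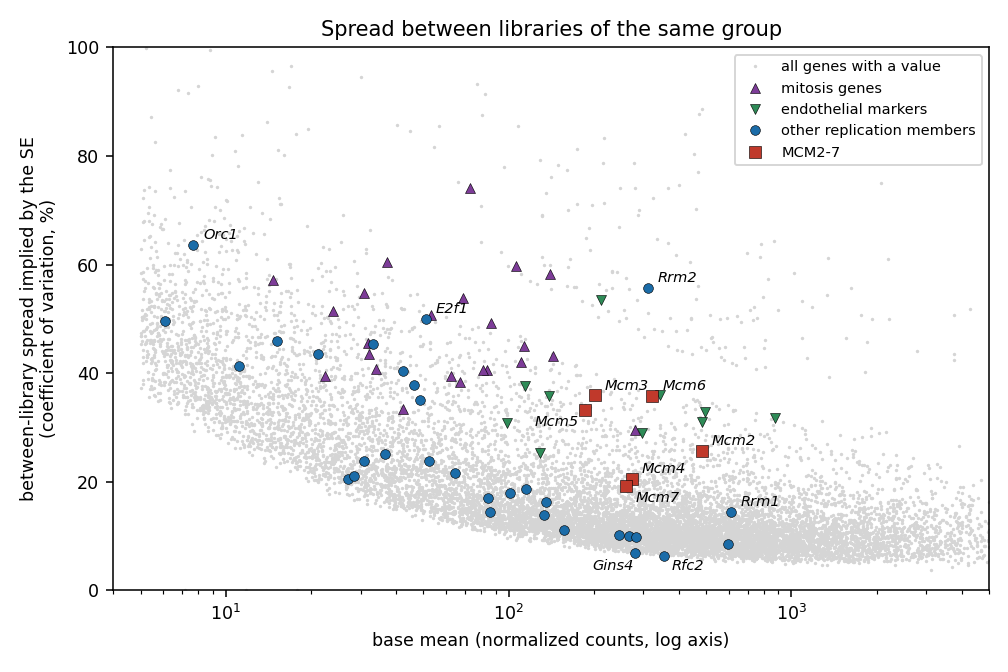
Base mean (log axis) against the between-library coefficient of variation implied by the SE, for all genes from a base mean of 5 (small points), MCM2-7 (squares), the other replication genes (circles), mitosis genes and endothelial markers (triangles). Mcm3, Mcm5, Mcm6 and Rrm2 lie above most genes of like base mean, in the range of the mitosis genes and endothelial markers; genes outside the axes are not shown.

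Genes of the same processes outside the 37 were listed by role, and their lower calls depended on the scaling. Of 35 further replication genes with an adjusted p-value, 1 was higher and 4 were lower in the authors' deposited table (Wald test, Benjamini-Hochberg adjustment), with a median log2 fold change of 0.00. The 1 that rose was Pold4, a small subunit of polymerase delta, at 0.51 (SE 0.21) in the authors' deposited table. The 4 that fell were Rpa3 of the single-strand binding complex, the polymerase subunits Pole4 and Pold2, and Orc3. The authors' deposited table gave -0.56 (SE 0.15) for Rpa3, -0.38 (SE 0.12) for Pole4, -0.33 (SE 0.11) for Pold2 and -0.22 (SE 0.07) for Orc3. Scaled to equal totals, 14 of the 35 were higher and 0 lower, and Orc3 turned to 0.07. Of 15 further nucleotide supply genes, 2 rose and 5 fell, and the median was -0.14; scaled to equal totals, 4 were higher and 2 lower. The dUTPase gene Dut fell, with -0.61 (SE 0.11, adjusted Wald p = 1.6e-06) in the authors' deposited table. The mitochondrial nucleoside kinases pointed in opposite directions, with Tk2 at 0.65 (SE 0.15) and Dguok at -0.65 (SE 0.13) in the authors' deposited table, both past the threshold.

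Partners of replication showed mixed values. Of the 11 S-phase repair genes reported here, 3 rose (5 scaled to equal totals). The helicase gene Blm and the end-resection gene Rbbp8 rose, at 0.55 (SE 0.19) and 0.45 (SE 0.13) in the authors' deposited table. The mismatch repair gene Msh6 also rose, at 0.54 (SE 0.15) in the authors' deposited table. In replication-coupled chromatin assembly (3 higher and 0 lower scaled to equal totals, where Rbbp7 turned to 0.04) 1 of 9 rose, Dnmt1 at 0.28 (SE 0.11), and 2 fell, Nasp at -0.35 (SE 0.10) and Rbbp7 at -0.25 (SE 0.06), in the authors' deposited table. Among 11 genes of the E2F and pocket protein network 0 rose and 2 fell, E2f6 at -0.57 (SE 0.07) and E2f4 at -0.32 (SE 0.09) in the authors' deposited table; both factors are known as repressors, and 0 others had an unadjusted p-value under 0.05. Scaled to equal totals, 1 of the 11 was higher and 1 lower. Of 8 checkpoint genes 0 rose and 3 fell, namely Hus1, Cdc25a and Wee1, at -0.60 (SE 0.13), -0.44 (SE 0.13) and -0.37 (SE 0.10) in the authors' deposited table, against 4 higher and 1 lower scaled to equal totals. The machinery that copies mitochondrial DNA had 0 of 6 higher and 3 lower, or 1 higher and 1 lower scaled to equal totals. Tfam, which packages that DNA, was at -0.72 (SE 0.10), Polrmt at -0.35 (SE 0.09) and Ssbp1 at -0.34 (SE 0.10) in the authors' deposited table.

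Mitosis genes had a median of opposite sign to that of the MCM ring. Of 23 with an adjusted p-value, 21 had negative log2 fold changes and the median was -0.39, yet only Cenpf fell by the test, at -0.67 (SE 0.27, adjusted Wald p = 0.044) in the authors' deposited table. With adjustment over all p-values, and under scaling to equal totals, 0 of the 23 passed. Their CVs were large, with a median of 44.9% a ratio of 2.34 to their neighbours in base mean, and all 23 lay above them. Mki67 and Top2a, common marks of cycling cells, had implied means of 131.9 and 170.2 with GFP and 95.5 and 118.0 with dnMKL1. The authors' deposited table gave -0.47 (SE 0.42) for Mki67 and -0.53 (SE 0.40) for Top2a, and neither passed. The difference between the replication and mitosis genes was not tested.

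**Figure D5:**
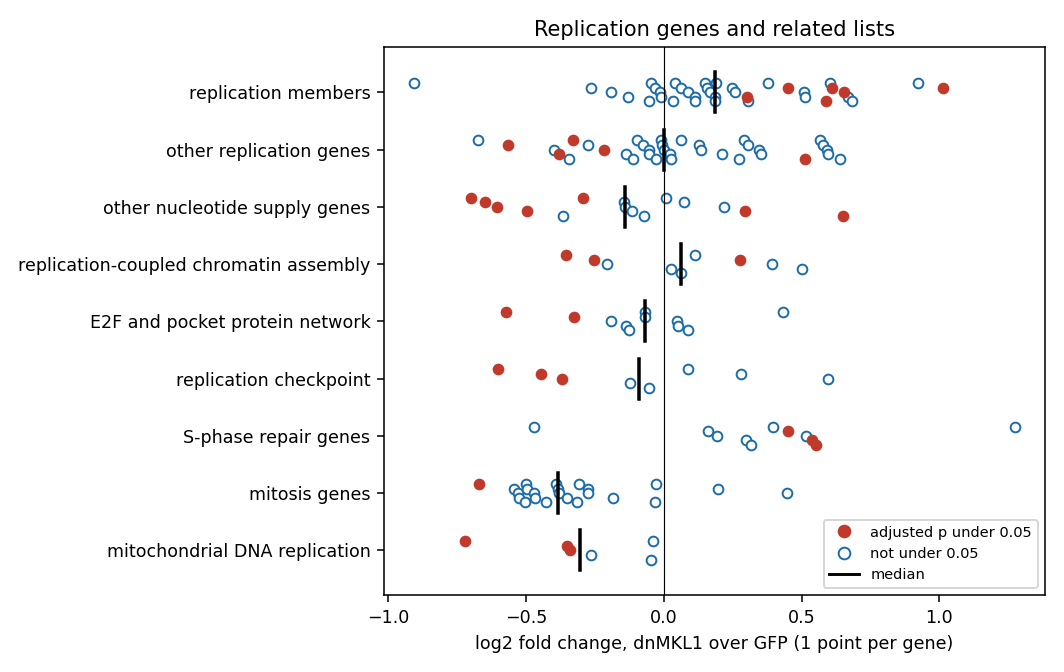
Log2 fold changes (dnMKL1 over GFP) of the 37 replication genes and 8 related lists, 1 point per gene, filled where the adjusted p-value is under 0.05, with a bar at the median except for the S-phase repair genes. Filled points of the replication genes lie on the right, those of the checkpoint and mitochondrial DNA lists on the left on the authors' scaling (scaling to equal totals moves every point right by 0.29), and mitosis genes have a median of -0.39 with 1 filled point.

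These are bulk libraries, in which fewer cells of a type and less RNA per cell cannot be told apart. The sorted cells carried the defining genes of cardiomyocytes at high level, with base means up to 594986 (Myh6) in the authors' deposited table, and 6 of the 8 cardiomyocyte markers were lower with dnMKL1 (5 scaled to equal totals), at a median of -0.68. Markers of other cell types were also present. Endothelial markers had 0 of 10 called and 0 at an unadjusted p-value under 0.05, with summed implied means of 3142 with GFP and 3237 with dnMKL1. The most abundant were Kdr, Pecam1 and Tie1, at base means of 875.7, 496.9 and 482.7 in the authors' deposited table. Fibroblast markers had 3 of 10 higher and 0 lower (Col1a1, Col1a2 and Col3a1), with sums of 3917 and 5291; scaled to equal totals, 7 were higher and 0 lower. Mural markers had 2 of 8 higher (Cspg4 and Myh11) and 0 lower, or 4 higher and 0 lower scaled to equal totals. Their sums of 7812 and 10919 differed mostly through Cspg4, at implied means of 500.6 and 2019, and Abcc9, at 6332 and 7773, which did not pass. Abcc9 made up most of both sums. Its base mean was 7052, against 268.2 for Rgs5, 124.3 for Kcnj8 and 52.6 for Vtn in the authors' deposited table. The sums are therefore no measure of mural RNA, and the cells that gave the Abcc9 reads were not tested. Rgs5, Kcnj8 and Vtn stood at 0.01, 0.03 and -0.33 in the authors' deposited table, and did not pass. Pdgfrb at 0.18 (SE 0.24) and Notch3 at 0.45 (SE 0.20) did not pass either. Of the 8 mural values, 7 were positive and 1 was negative. White cell markers had 1 of 9 higher (Cd68) and 0 lower, with sums of 175.3 and 155.9. Cd68 was the 1 positive value, 8 were negative, and the median was -0.12. Lyz2, the most abundant of them, was at -0.55 (SE 0.26) in the authors' deposited table and did not pass. Of the erythroid markers, Hba-a1 and Hba-a2 were listed at 0, while Alas2 had a base mean of 6.87 (72 estimated reads over all libraries) and Slc4a1 one of 1.45 (15 reads); neither passed. The part of these cells in the values of the replication genes was not tested.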

How the data were processed

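RNA was measured by sequencing in 10 libraries of sorted cardiomyocytes, 5 per group. Per the labels' protocols, 10 ng of total RNA was reverse transcribed, amplified over 8 PCR cycles with a SMART-Seq kit, and 500 pg of cDNA entered Nextera XT libraries. Reads were aligned with STAR 2.5.3a and counted per gene with featureCounts (Subread 1.5.2) on mm10, per the submitters' processing notes. Annotation and strand setting are not given in the sources used here.

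The deposited table has the columns of a DESeq2 result, per the file headers. Its base mean is a signal in normalized counts, its log2 fold change and SE are on the log2 scale, its Wald statistic is a score, and its p-value and adjusted p-value are the authors' own. Recomputing the deposited adjusted p-value (Benjamini-Hochberg, 14056 genes) left a largest gap of 1.4e-07. The table holds no values per library, so no count test was run and the deposited Wald test was used. Each p-value sets a fold change against an SE that rests on the spread between these libraries, as moderated by the authors' model.

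Implied group means take the base mean as the average of 2 equal groups. The 95% intervals are the log2 fold change plus or minus the normal quantile times the SE. Genes seen as a single read gave each library's size factor, which multiplied by its group's summed implied means estimates the library total. The CV is the root of the negative binomial dispersion that gives the deposited SE, for genes from a base mean of 5 upwards. The CV was added after the data had been seen and was checked on simulated data, as were the adjustment and scaling steps (Python 3.11.15, scipy 1.17.1). Reads carry no molecular identifiers, so depth speaks of counting error only.

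The members and lists were chosen with earlier results of these data known. All 37 members could be named, and of other lists genes with an adjusted p-value under 0.05, those with the smallest p-values and the most abundant markers. Mki67, the mural markers Rgs5, Kcnj8, Vtn and Notch3, the erythroid markers Hba-a1 and Hba-a2, and the overlapping neighbours of members fell outside these rules. They were named after values were seen. The S-phase repair list leaves out 1 gene that is not reported here, removed after its values were seen, so no median is given for that list. Alternatives were other thresholds, filters, adjustment over all p-values and 2 scalings.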

Additional observations from a re-analysis of the deposited data

How the results depend on the processing

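No paired analysis was possible because the table holds 1 comparison and no column per library. Fits without single libraries, with other count tools or with other count filters were not run for that reason, so the weight of any 1 library is not known.

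The 6 replication genes that rose became 3 at an adjusted p-value under 0.01 (Mcm6, Mcm7 and Rfc5) and 8 under 0.1. At the main threshold of 0.05, 16.6% of all genes tested were higher and 17.4% lower. Shares of all genes at the other thresholds, filters and adjustments are not given here, so these counts do not set the group apart. Adjusting over all p-values gave 5, and median-centring gave 5, Orc6 being lost in both. Requiring an absolute log2 fold change of 0.5 left 4, and base mean filters at 10 or 100 left 6. Scaling to equal totals gave 19, all higher, beside 40.4% of all genes higher. It moved the median from 0.18 to 0.47, by the shift of 0.29 itself. The median was 0.18 or 0.19 under the base mean filters and 0.18 with median-centring. The same shift turned 8 values positive, none past the threshold: Mcm2 to 0.28, Gins1 to 0.28, Rfc4 to 0.024, Prim1 to 0.10, Pole to 0.16, Rrm1 to 0.24, Tk1 to 0.24 and Uhrf1 to 0.26. It brought 13 more past the threshold, and 16 kept their direction and their side of it. With 50 neighbouring genes in place of 200, an alternative chosen after seeing the data, the spread ratio of MCM2-7 was 2.61. Depth limits the 13 genes with a base mean under 50.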
